A study of Mus musculus with 4 samples.

Results

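The osteocalcin genes *Bglap*, *Bglap2* and *Bglap3* and the matrix Gla protein gene *Mgp* were described by how accessible the chromatin around them was in primary mouse osteoblasts with and without the TET enzymes. Every region of the deposited count table that overlapped a member gene or the 25 kb on either side was taken, with the genes as annotated in GENCODE M21 on GRCm38 and each region of the *Bglap* cluster counted a single time. This gave 19 of 255864 regions, 9 in the *Bglap* cluster window (chr3:88343616-88409464) and 10 in the *Mgp* window (chr6:136847435-136900823).

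Osteocalcin is a small protein secreted by mature osteoblasts and is among the most abundant proteins of bone matrix other than collagen. Like matrix Gla protein, which keeps cartilage and vessel walls from calcifying, it carries glutamates that a vitamin K-dependent enzyme carboxylates so that they bind calcium. The mouse has a tandem cluster in which *Bglap* and *Bglap2* encode the osteocalcin of bone, and *Bglap3* encodes a related protein made mainly outside bone. TET enzymes oxidise 5-methylcytosine, most of which lies in CpG dinucleotides, on the way to its removal.

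The assay was ATAC-seq: a transposase cuts open DNA, and the local read count shows how accessible it was. The WT group held wild type C57BL/6 mice of 3 days, and the TCKO group held mice of the same strain and age that carried Prx1-Cre and were Tet1fl/fl, Tet2fl/fl and Tet3fl/fl, that is, with both alleles of each *Tet* gene floxed. Prx1-Cre acts in mesenchymal cells of the limb bud and of part of the skull, and per the study's methods primary osteoblasts came from the calvarial bone, so any cell of another lineage in the culture would have kept its *Tet* alleles. The labels listed 2 samples per genotype while a protocol text spoke of 3 repeats, and the counts came merged into 1 column for each genotype. There was therefore no measure of spread between animals, no test was made, and every difference compares 2 merged libraries. Intervals in brackets are 95% intervals that cover counting error only, and since no molecular identifiers were used, reads are not independent molecules.

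The WT column summed to 56898657 counts and the TCKO column to 34608167. Each log2 ratio is that of the TCKO count multiplied by 1.64, the ratio of these totals, plus 1 over the WT count plus 1. The factor matters: without it the median of all regions moved by -0.71 on the log2 scale, and with a factor from the peak caller's background it moved by -0.60. The labelled cell type was checked on 6 osteoblast markers (*Runx2*, *Sp7*, *Alpl*, *Col1a1*, *Col1a2* and *Ibsp*), and all 6 had accessible regions over the gene body or within 2 kb upstream, with 28275 counts in WT and 16352 in TCKO. Accessibility alone did not single out osteoblasts, since 5 of 5 macrophage or osteoclast markers, 4 of 4 chondrocyte markers and 3 of 3 liver markers also had regions, as did 2 of 4 muscle markers, with no region over *Myog* or *Acta1*. The summed counts were 4496 and 2689 over the macrophage or osteoclast markers, 6582 and 3858 over the chondrocyte markers, and 273 and 180 over the muscle markers, in WT and TCKO respectively. All 4 endothelial markers (*Pecam1*, *Cdh5*, *Tek* and *Kdr*) had ratios above 0, from 0.23 to 0.54, with sums of 6421 in WT and 4996 in TCKO. All 4 intervals lay above 0 (23.6% of protein-coding loci), and this sign depends on the factor. Within 2 kb of a start *Tek* stood at -0.26 [-0.46, -0.06] and the other 3 had intervals above 0. Of the osteoblast markers 5 of 6 had ratios below 0, 3 with an interval below 0 (32.8% of loci). Of the chondrocyte markers 2 intervals lay below 0 and 2 above. The part of any of these cell types in the values below was not tested. The loci of *Tet1*, *Tet2* and *Tet3* had ratios of -0.16, -0.22 and -0.14, which are sums over whole genes and do not show whether floxed exons were removed.

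The osteocalcin promoters are shown first, because the genotype differences there were read from near-identical copies. The 250 bases before the RefSeq start of *Bglap* (chr3:88384467-88384716, minus strand, GRCm38) hold 3 of the sequences searched, in capitals from left to right: a CCAAT box, the OSE1 element (TTACATCA) at which ATF4 acts on the osteocalcin gene, and a TATA box (TATAAA). In the same stretch of *Bglap3* (chr3:88372742-88372991, minus strand) the capitals mark CCAAT and its reverse complement, and neither OSE1 nor TATAAA was found. It holds TATATAA, which is not TATAAA and was not counted, so the search does not show that a TATA box is absent. RefSeq gave 3 promoters of *Bglap3*, and the one furthest upstream is shown. RefSeq promoters of *Bglap2* and *Mgp* were not matched.
Bglap promoter: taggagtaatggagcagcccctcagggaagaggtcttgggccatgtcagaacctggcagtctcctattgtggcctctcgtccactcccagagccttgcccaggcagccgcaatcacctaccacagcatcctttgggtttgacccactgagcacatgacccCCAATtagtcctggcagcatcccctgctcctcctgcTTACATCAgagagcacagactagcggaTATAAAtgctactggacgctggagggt
Bglap3 promoter: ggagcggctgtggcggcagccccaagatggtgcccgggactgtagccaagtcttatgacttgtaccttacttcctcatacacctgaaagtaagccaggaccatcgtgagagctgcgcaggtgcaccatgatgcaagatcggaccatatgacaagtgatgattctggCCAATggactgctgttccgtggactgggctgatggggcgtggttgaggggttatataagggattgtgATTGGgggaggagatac

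Next to each of *Bglap* and *Bglap2*, downstream of the gene, lies a pseudogene with an accessible region, *Gm6821* and *Gm21956*. The region in *Gm6821* (chr3:88381965-88382231) and the stretch of the *Gm21956* region that aligned with it (chr3:88376205-88376471) are shown on the minus strand of GRCm38 with CG in capitals. They were chosen because the ratios of their regions differed. They shared 250 of 267 bases (93.6%), and each held 8 CG.
Gm6821 region: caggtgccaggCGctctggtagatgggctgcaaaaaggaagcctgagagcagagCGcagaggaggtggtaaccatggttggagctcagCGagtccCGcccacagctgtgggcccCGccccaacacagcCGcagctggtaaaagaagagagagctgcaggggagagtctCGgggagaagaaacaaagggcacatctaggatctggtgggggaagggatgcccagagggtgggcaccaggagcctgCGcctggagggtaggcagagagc
Gm21956 region: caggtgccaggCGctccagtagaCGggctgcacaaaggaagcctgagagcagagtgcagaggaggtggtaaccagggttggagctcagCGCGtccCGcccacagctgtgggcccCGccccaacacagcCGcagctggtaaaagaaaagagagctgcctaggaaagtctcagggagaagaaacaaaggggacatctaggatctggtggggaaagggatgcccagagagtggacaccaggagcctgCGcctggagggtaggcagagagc

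The 3 accessible regions of the *Mgp* window with the lowest ratios are given in the same way, the first as the 200 bases around its middle (chr6:136887990-136888189), the intronic one likewise (chr6:136874617-136874816), and the region in *Art4* whole (chr6:136856517-136856630). The last fell short of the 50 counts required for a named region and was chosen after its values were seen. They hold 5, 2 and 4 CG in the bases shown.
Mgp 12.3 kb upstream: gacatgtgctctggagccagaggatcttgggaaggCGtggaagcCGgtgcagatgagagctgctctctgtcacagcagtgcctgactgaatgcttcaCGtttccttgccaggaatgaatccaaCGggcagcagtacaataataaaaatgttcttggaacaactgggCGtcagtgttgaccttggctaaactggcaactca
Mgp intron: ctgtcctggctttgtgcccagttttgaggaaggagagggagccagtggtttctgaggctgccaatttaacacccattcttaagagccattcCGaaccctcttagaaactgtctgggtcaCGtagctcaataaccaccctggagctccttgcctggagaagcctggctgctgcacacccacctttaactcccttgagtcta
Art4 intron: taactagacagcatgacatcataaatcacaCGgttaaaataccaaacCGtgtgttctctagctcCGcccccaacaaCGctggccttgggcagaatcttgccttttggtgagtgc

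At the osteocalcin promoters a difference between the genotypes beyond counting error was not detected with total count scaling, and at the *Bglap* start this depended on the factor. The region over the start of *Bglap* (ENSMUSG00000074483, chr3:88383501-88384464) spanned chr3:88384413-88384745 and held 93 counts in WT and 51 in TCKO. Its ratio was -0.15 [-0.64, 0.34]. Unscaled it was -0.85 [-1.36, -0.38] and with the peak caller's background -0.75 [-1.25, -0.27], both below 0, as the median of all regions also was under these factors. Over the start of *Bglap2* (ENSMUSG00000074486, chr3:88377736-88378699) a region at chr3:88378606-88378943 held 106 and 82 counts, a ratio of 0.34 [-0.07, 0.76], which became -0.37 [-0.78, 0.04] unscaled and -0.26 [-0.68, 0.15] with the peak caller's background. The difference between the copies, which does not depend on the scaling, was -0.50 [-1.14, 0.15] and also included 0. No region lay over *Bglap3* (ENSMUSG00000074489, chr3:88368616-88372743), which sits in a gap of 8800 bp between regions, so no peak was listed over it in either genotype and no ratio can be given. At 50 bases 61.8% of this gap was unique sequence, and whether accessibility was low there or reads were lost was not tested. Per length and depth, the WT level was 4.91 counts per kb and per 1000000 counts at the *Bglap* start, 5.51 at the *Bglap2* start and 21.5 at the *Mgp* start. In TCKO the corresponding levels were 4.43, 7.01 and 16.6, in the same order, and neither osteocalcin start reached the level of the *Mgp* start.

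The regions in the pseudogene copies differed from each other in ratio. The region in *Gm6821*, centred 2.4 kb downstream of the *Bglap* start, had 279 WT and 111 TCKO counts and a ratio of -0.61 [-0.93, -0.30]. In *Gm21956*, centred 2.2 kb downstream of the *Bglap2* start, the region at chr3:88376154-88376759 held 364 and 253 counts, a ratio of 0.19 [-0.04, 0.42]. With total count scaling the interval of the first lay below 0 and that of the second included 0, but unscaled the second was -0.52 [-0.76, -0.29] and with the peak caller's background -0.42 [-0.65, -0.19]. Their difference, which no common factor moves, was -0.80 [-1.20, -0.41]. The regions were unlike in width, 267 and 606 bp, and the second was as wide as the TCKO peak. Counts over the aligned stretch alone were not available, so whether the copies differ over like bases was not tested. At the summits, the peak caller's fold over its local background was 9.61 in WT and 5.17 in TCKO in *Gm6821*, and 9.53 and 6.67 in *Gm21956*. The fold was thus lower in TCKO in both copies. The reads piled up there, not scaled for depth, numbered 49 in WT and 22 in TCKO in *Gm6821*, and 46 and 29 in *Gm21956*. Which genotype was higher at the *Gm21956* summit therefore depends on the factor. In WT the *Gm21956* peak spanned 340 bp, and in TCKO it spanned 606 bp and had a second summit.

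The other regions of the cluster window lay in or beside neighbouring genes. An intron of *Pmf1*, 22.8 kb upstream of the *Bglap* start, held the region with most counts, 474 in WT and 263 in TCKO, a ratio of -0.13 [-0.35, 0.08]. Just before the start of *Paqr6* the region at chr3:88363832-88364234 held 261 and 185 counts, a ratio of 0.22 [-0.05, 0.49]. The 3 remaining regions, in *Smg5* and *Paqr6*, had ratios from -0.37 to 0.28, all with intervals that included 0. Summed over its 9 regions the cluster window had 1948 WT and 1153 TCKO counts, which gave a ratio of -0.04 [-0.14, 0.07]. With this scaling 5 of its regions had ratios below 0 (45.4% of all regions did) and 4 above, and the *Gm6821* region alone had an interval below 0 (18.9% of all regions). These calls changed with the scaling. With the peak caller's background all 9 ratios were below 0 (77.2% of all regions) and 7 intervals lay below 0 (54.9% of all regions), with a sum of -0.65 [-0.75, -0.54], and with TMM the sum was -0.12 [-0.22, -0.01].

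**Figure D1:**
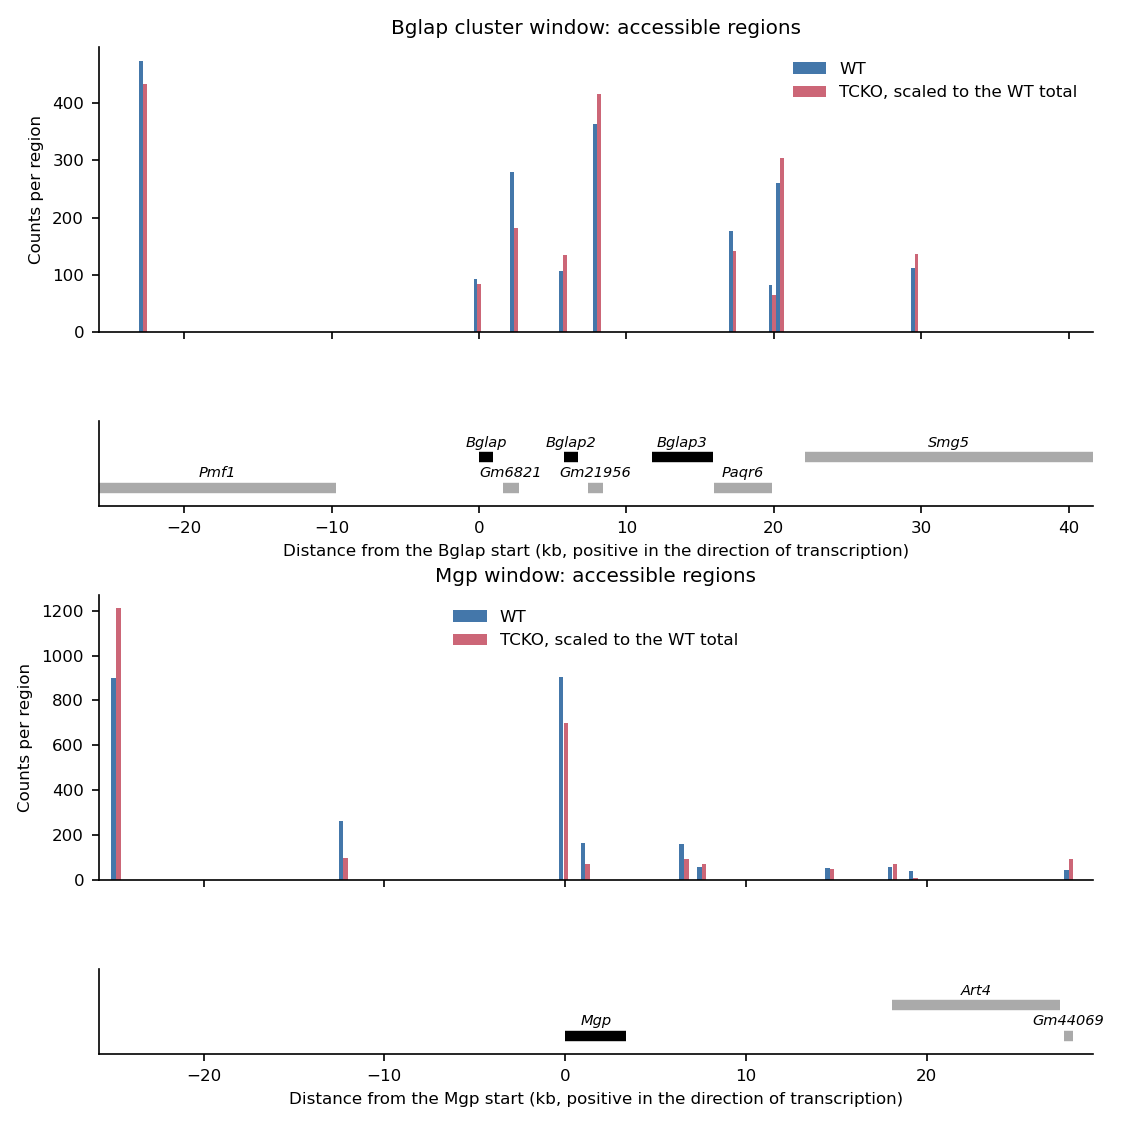
Counts of each accessible region (bars, WT in blue and TCKO in red after multiplication by 1.64) against the distance of its midpoint from the *Bglap* or *Mgp* start in kb, with annotated genes below and member genes in black. In the *Mgp* window the bars at 12.3 kb upstream were 261 in WT and 98.6 in TCKO, while those at 24.8 kb upstream were 900 and 1210.

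How much of the cluster the reads could reach was examined because the study kept only uniquely mapping reads. *Bglap* and *Bglap2* were identical at 939 of 964 aligned bases (97.4%), and the 250 bases before their starts were 96.0% identical. Of the stretches of 50 bases lying wholly in the gene, 58.0% in *Bglap*, 31.9% in *Bglap2* and 69.6% in *Bglap3* occurred at a single place in the genome, against 100% in *Mgp*. With 100 bases these shares were 83.2%, 65.8% and 92.8%, and with 150 bases 97.3%, 89.9% and 98.4%. The accessible regions were more unique than the genes around them: at 50 bases 83.1% of the *Bglap* start region, 57.4% of the *Bglap2* start region, 83.5% of the *Gm6821* region and 73.6% of the *Gm21956* region were unique. The gaps were less so, with 37.6% between the *Gm21956* and *Bglap2* start regions and 46.7% between the *Gm6821* and *Bglap* start regions. Counts of the copies are therefore uncertain, their levels may be understated, and the read length was not given in the sources used here. All 10 regions of the *Mgp* window were fully unique at each length.

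**Figure D2:**
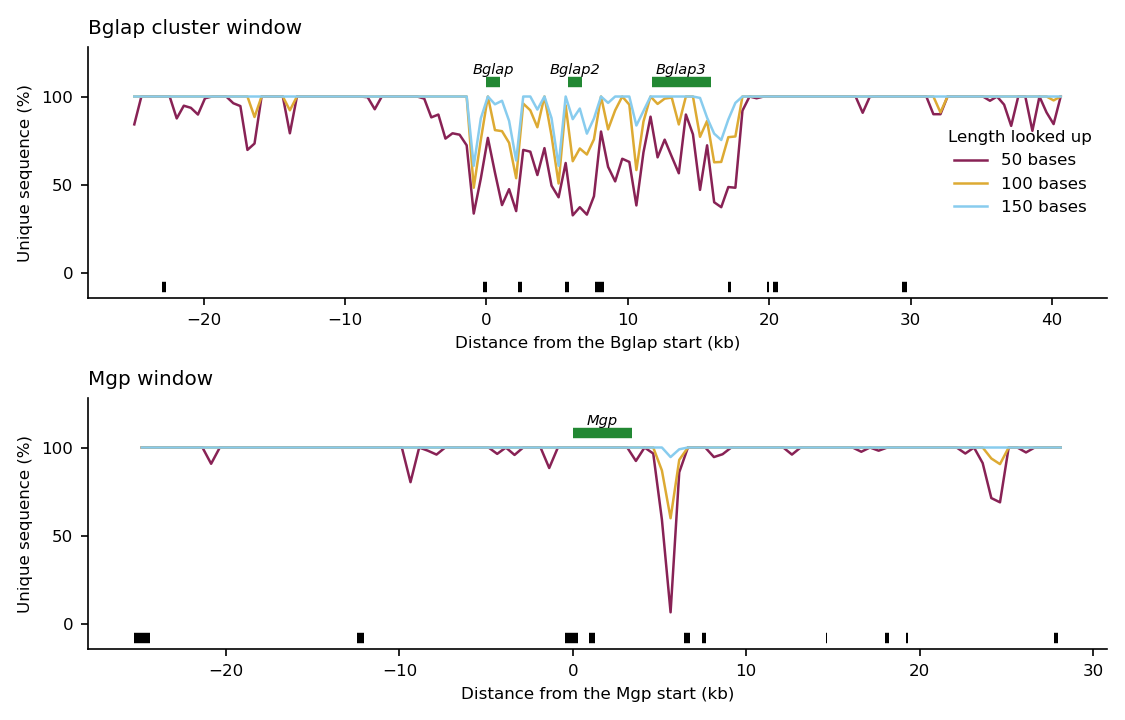
Share of starting positions, in percent and in bins of 500 bp, whose next 50, 100 or 150 bases occur at a single place in GRCm38, against the distance from the *Bglap* or *Mgp* start in kb, with member genes in green above and accessible regions in black below. The line for 50 bases drops across the *Bglap* cluster, where 84.7% of the window was unique, and is at 100% over the *Mgp* gene, while 97.1% of the *Mgp* window was unique and its lowest bin, downstream of the gene, was at 6.80%.

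Around *Mgp* (ENSMUSG00000030218, chr6:136872435-136875823) accessibility was lower in TCKO at the gene and at a site upstream of it, and further upstream it was higher with total count scaling, a direction that turned without scaling and with the peak caller's background. The region over the *Mgp* start, chr6:136875546-136876285, had 904 WT and 425 TCKO counts and a ratio of -0.37 [-0.54, -0.21]. In the gene's intron, chr6:136874546-136874886, counts were 164 in WT and 42 in TCKO, a ratio of -1.24 [-1.73, -0.76], and a peak was called in WT alone. The lowest ratio among the named regions was that of the intergenic region 12.3 kb upstream of the start, chr6:136887883-136888296, with 261 counts in WT and 60 in TCKO, -1.39 [-1.81, -1.0002] or 2.63 times lower. Of all regions, 1.39% had a ratio as low or lower than the upstream region, 2.26% than the intronic one and 21.3% than the start region. The intronic region was kept through its WT peak, so its low ratio and rank can follow from that choice.

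Downstream of the gene, 6.6 kb from its start, the region at chr6:136869066-136869438 had 161 WT and 56 TCKO counts and a ratio of -0.80 [-1.24, -0.37]. Further away in an intron of *Art4*, which encodes an ADP-ribosyltransferase family protein that carries a blood group, a narrow region of 114 bp held 41 counts in WT and 5 in TCKO, -2.19 [-3.61, -1.02]. In the same direction, at 27.9 kb, the region at chr6:136847863-136848064 in the unclassified transcript *Gm44069* held 43 and 56 counts, a ratio of 1.08 [0.53, 1.67]. The 3 other regions on this side had 84 to 101 counts over both genotypes and ratios from -0.13 to 0.33 whose intervals included 0.

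The region 24.8 kb upstream, chr6:136900208-136901116, was the widest of the window and held most counts over both genotypes, although in WT the start region held slightly more. It was as wide as the TCKO peak there, 909 bp, while the WT peak spanned 557 bp. Its counts were 900 in WT and 736 in TCKO, with a ratio of 0.43 [0.29, 0.57]. With the median of GC bins removed its ratio was 0.18, without scaling -0.29 [-0.43, -0.15] and with the peak caller's background -0.18 [-0.32, -0.04], so its direction turned with the scaling, although it stayed above the median of all regions under each of the 7 scalings. It took 34.1% [32.3, 35.9] of the counts of the *Mgp* window in WT and 49.2% [46.7, 51.8] in TCKO. The 12.3 kb upstream region took 9.88% [8.80, 11.1] and 4.01% [3.13, 5.13], and the start region 34.2% [32.4, 36.0] and 28.4% [26.2, 30.8]. Summed over all 10 regions the window had 2643 counts in WT and 1495 in TCKO, a ratio of -0.10 [-0.20, -0.01], and without the 24.8 kb upstream region -0.48 [-0.61, -0.36].

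**Figure D3:**
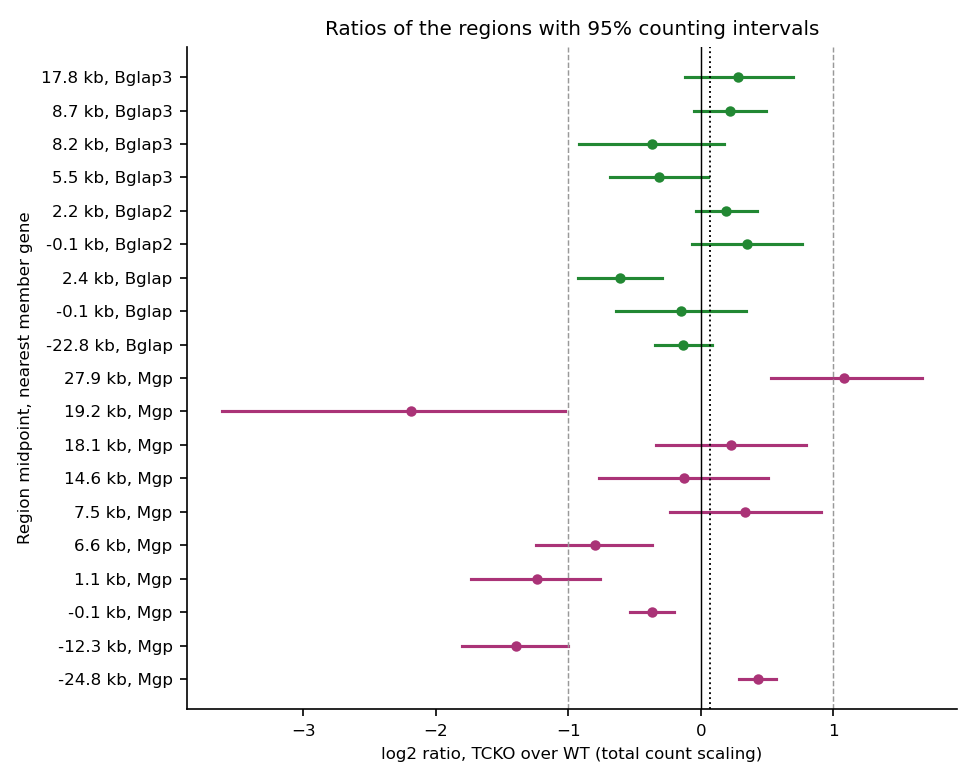
Log2 ratio of TCKO over WT for the 19 regions (points) with 95% counting intervals (lines), green for the *Bglap* cluster and purple for *Mgp*, each named by the distance in kb of its midpoint from the nearest member start (negative upstream). Dashed lines mark a 2-fold difference and the dotted line the median of all regions, 0.06; the *Bglap* cluster stays within 2-fold and the *Mgp* window spans -2.19 to 1.08.

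The differences of ratios within the *Mgp* window do not depend on the factor chosen, since a scaling common to a library drops out of them. Of 13 pairs compared, 9 set another region of the window against the *Mgp* start region. The log2 ratio at 12.3 kb upstream differed from that of the start by -1.03 [-1.47, -0.59], and that of the intron by -0.88 [-1.39, -0.36]. The intronic region was called in WT alone, so its difference can follow from its being kept through WT and is not a separate result. At 6.6 kb downstream the difference was -0.43 [-0.90, 0.03] and included 0. The 24.8 kb upstream region stood 0.80 [0.58, 1.02] above the start and the *Gm44069* region 1.47 [0.87, 2.07]. The 24.8 kb upstream and *Gm44069* regions were as wide as their TCKO peaks, 909 and 202 bp. The start and 12.3 kb upstream regions were as wide as their WT peaks, 740 and 414 bp. The main summit at 24.8 kb upstream had 65 reads in WT and 57 in TCKO, not scaled for depth. That at the start had 48 and 40. Whether the differences hold over like bases was not tested. Set against the osteocalcin starts, the *Mgp* start ratio differed by -0.22 [-0.74, 0.30] from that of *Bglap* and by -0.72 [-1.17, -0.27] from that of *Bglap2*. Hence the ratio of TCKO over WT was lower at the *Mgp* start than at the *Bglap2* start beyond counting error. A difference in ratio from the *Bglap* start was not detectable at this depth.

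The shape of the peaks at *Mgp* differed as well. At the start region WT had a summit 44 bp into the gene with a fold of 8.26 over background and another 306 bp upstream of the start with a fold of 5.86. TCKO kept a summit 21 bp into the gene, with a fold of 10.2, and none upstream, and its peak was 587 bp wide against 740 bp. The pileup there was 40 reads in TCKO and 48 in WT, over backgrounds of 3.01 and 4.93 reads, and pileups are as read by the caller, not scaled for depth, so which genotype was higher at this summit depends on the factor. At 12.3 kb upstream WT had 2 summits, the higher with a fold of 11.5 and a pileup of 37 reads, and TCKO had a single summit with a fold of 5.50 and 15 reads. The main summit at 24.8 kb upstream was alike in fold, 13.8 in WT and 13.6 in TCKO, with 65 and 57 reads, while the peak spanned 557 bp in WT and, with 3 summits, 909 bp in TCKO.

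Counted over all members, a ratio at least 2-fold below WT was seen at 3 of 19 regions, against 4.51% of all regions, and one at least 2-fold above WT at 1, against 12.3%. All 4 lay in the *Mgp* window. Intervals lay wholly below 0 at 6 members and above 0 at 2, against 18.9% and 29.5% of all regions. Below 0 in ratio were 11 members, against 45.4% of all regions, and the median over the members was -0.13 against 0.06. With the peak caller's background 5 members were at least 2-fold lower, where 19.9% of all regions were, and 18 had ratios below 0, where 77.2% did, so these counts depend on the scaling. The median of the members stood at -0.20 from that of all regions with either factor. A peak was called in both genotypes at 14 members (56.8% of all regions), in WT alone at 5 (33.0%) and in TCKO alone at 0 (10.2%). The regions with a WT peak alone included the *Bglap* start, the *Mgp* intron and the region in the *Art4* intron. The *Mgp* and *Art4* introns were also among the regions at least 2-fold lower. Every region overlapped a peak of at least 1 genotype, so regions called in WT alone were kept through WT. Their low ratios can follow from that choice and are not a separate result about the members.

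**Figure D4:**
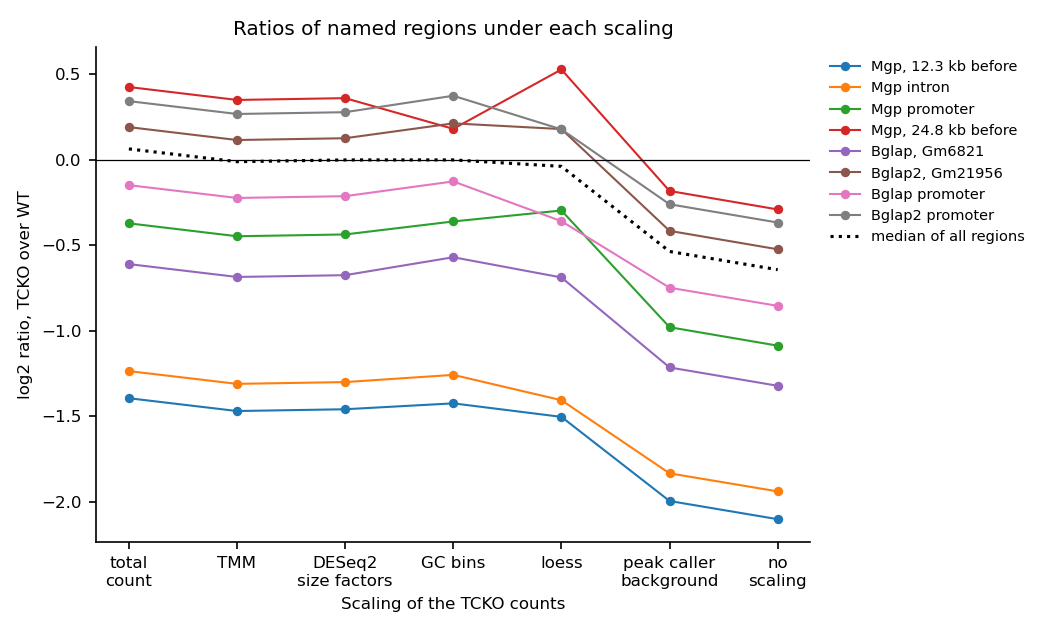
Log2 ratio of TCKO over WT for 8 named regions (coloured lines) and the median of all regions (dotted) under 7 ways of scaling the TCKO counts. Scaling by a single factor shifts all lines together, while GC bins and loess move them apart, and the 24.8 kb upstream region moves from 0.43 with total counts to 0.18 with GC bins, 0.53 with loess and -0.29 with no scaling.

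As whole loci, with the regions over a gene body or within 2 kb upstream summed, *Mgp* had 1068 counts in WT and 467 in TCKO, a ratio of -0.48 [-0.63, -0.32]. Of 18073 protein-coding loci with regions 2.55% had a ratio as low or lower. The sum took in the intronic region, which was called in WT alone and so kept through WT. The low ratio and percentile of *Mgp* can in part follow from that choice. The start region by itself stood at -0.37, and 21.3% of all regions had a ratio as low or lower. The *Bglap* locus stood at the percentile of 26.8 and the *Bglap2* locus at 89.2, each resting on a single region. Only the interval of *Mgp* lay below 0, as at 32.8% of these loci, and none of the 3 lay above 0, as at 23.6%. Summed within 2 kb of its start instead, which adds the *Gm21956* region, *Bglap2* stood at 0.23 [0.03, 0.43], with an interval above 0 as at 15.1% of loci. That interval cleared 0 by only 0.03 with total count scaling. TMM moved the median of all regions by -0.07, so this call depends on the factor. With 25 kb on either side the percentile of *Mgp* was 28.8, with an interval below 0 as at 35.7% of loci, and those of *Bglap*, *Bglap2* and *Bglap3* were 39.5, 52.1 and 52.1, the last 2 resting on the same 8 regions.

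**Figure D5:**
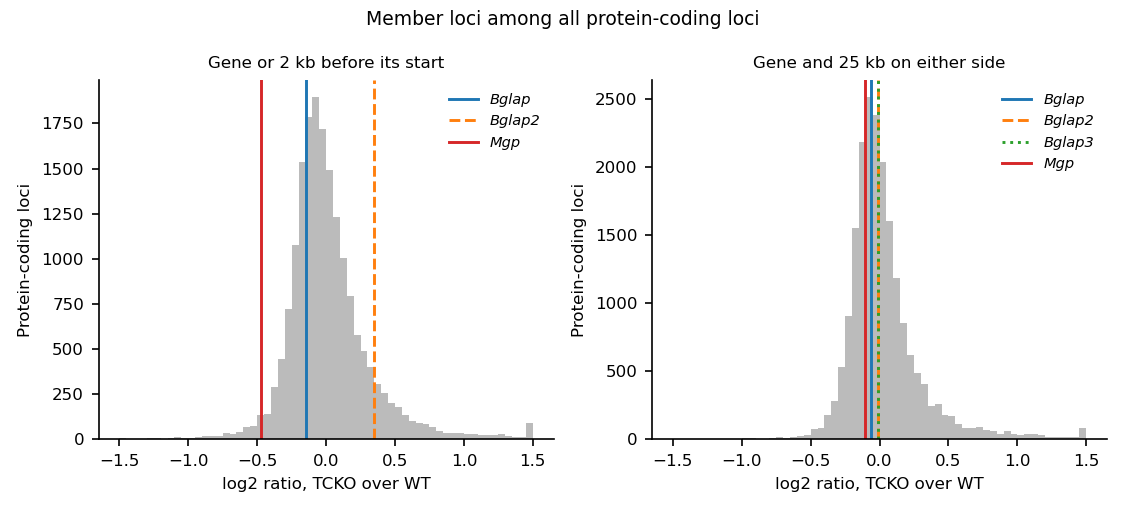
Number of protein-coding loci with at least 50 counts by log2 ratio of TCKO over WT (grey bars, values beyond the axis in the end bars), with the member loci as lines, for regions over the gene body or within 2 kb upstream (left) and over the gene and 25 kb on either side (right). *Mgp* lies at -0.48 on the left and at -0.10 on the right.

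In sequence, the members were somewhat richer in CpG than regions at large, with a median of 1.47 CpG per 100 bp against 1.02, and 0 of 19 lacked a CpG against 15.7% of all regions. They were also wider, with a median of 317 bp against 243, and higher in GC, 55.1% against 48.5%. The median CpG observed over expected was 0.23 against 0.19. The part of width and GC in the CpG difference was not tested. The 12.3 kb upstream region held 9 CpG in 414 bp, the intronic region 5 in 341 bp, the *Mgp* start region 13 in 740 bp and the 24.8 kb upstream region 5 in 909 bp. DNA methylation was not measured in these files. Motifs were searched on both strands in the central 200 bp of each region, and a match is a description of the letters there, not a site. OSE1 was found at the *Bglap* and *Bglap2* starts, 56 bases before each GENCODE start, and in 0.98% of all regions and 1.10% of 32851 RefSeq promoters. The Runt motif TGTGGTT includes the core bound by RUNX2, a factor that directs osteoblast development. In full it was found at the *Bglap2* start alone among the members, as its reverse complement AACCACA 135 bases before the start. It was found in 8.72% of all regions and 5.27% of promoters. The *Bglap* promoter shown above holds TACCACA, which differs from AACCACA in the first base alone and was not counted. The search therefore does not show that the *Bglap* start lacks the RUNX2 core. TATAAA was found at the *Bglap*, *Bglap2* and *Mgp* starts (8.94% of regions, 13.6% of promoters), and CCAAT at 6 members (23.3% and 37.4%). The TEAD motif GGAATG was found at 5 members, among them the *Mgp* start, the intron and both upstream regions, and in 16.3% of all regions. TAATTA, a homeobox motif, was found at 2 members, one of them the 24.8 kb upstream region (2.47% of regions), and the AP-1 motif TGANTCA at 1 (23.6% of regions). Over its whole length the 24.8 kb upstream region held 2 Runt and 2 AP-1 matches outside the central bases.

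The genes that act with the members were read in the same way, as regions over the gene body or within 2 kb upstream. Of 12 genes for gamma-carboxylation and other Gla proteins, 6 had an interval below 0 (32.8% of all loci) and 1 above (23.6%), with a median of -0.11 against -0.03 over all loci. *Gas6*, a vitamin K-dependent ligand of receptor kinases, had the lowest ratio, -0.48 [-0.61, -0.35], and *Vkorc1*, which recycles vitamin K, stood at -0.31 [-0.42, -0.20]. The carboxylase gene *Ggcx* stood at -0.04 [-0.17, 0.08]. *Vkorc1l1*, a paralog of *Vkorc1*, had most counts and stood at -0.12 [-0.20, -0.04]. *Vkorc1* and *Ggcx* were added for their roles after the values were seen. Of the 6 clotting Gla proteins of liver 0 had an interval below 0 and 2 had one above, on fewer counts (2227 in WT against 19811 over the former list), led by *F10* at 0.64 [0.38, 0.90]. *F9* was lowest at -0.32 [-0.76, 0.10], and *Proc*, the protein C gene, had most counts and stood at 0.25 [0.10, 0.39].

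Among 10 factors that act on osteocalcin transcription, 2 had an interval below 0 (32.8% of all loci) and 2 above (23.6%), with a median of -0.02. *Runx2* had most counts, 17646 in WT and 10735 in TCKO, and a ratio of 0.00 [-0.03, 0.03]. *Dlx5* was lowest at -0.38 [-0.55, -0.20] and *Dlx3* highest at 0.40 [0.19, 0.61], both homeobox factors that bind the osteocalcin promoter. The 3 annotated genes of osteocalcin receptors and signalling had ratios from 0.10 to 0.58, 2 with an interval above 0 (23.6% of all loci). Of these *Gpr158*, a receptor in the brain, was highest. The insulin receptor gene *Insr* had most counts and was lowest, at 0.10 [0.04, 0.16]. Within 2 kb of a start, however, 2 of the 3 had ratios below 0 and 0 had an interval above 0. There *Gpr158* stood at -0.14 [-0.42, 0.15]. Of 5 other inhibitors of calcification 4 had regions, with 0 intervals below 0 (32.8% of all loci) and 2 above (23.6%). *Spp1*, which encodes osteopontin, was highest at 0.47 [0.29, 0.64]. *Ank*, a transporter that supplies pyrophosphate, had most counts and was lowest at -0.01 [-0.08, 0.06]. With 25 kb on either side *Spp1* stood at -0.08 [-0.14, -0.02], while 3 of the 5 had an interval above 0. All list ratios were read with total count scaling only. With the peak caller's background the median of all regions moved by -0.60, so the sign of the list ratios depends on the factor.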

How the data were processed

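ATAC-seq reads of primary osteoblasts had been aligned by the authors to GRCm38 with STAR 2.7.0e, kept where uniquely mapping, merged by genotype and passed to MACS2, per the study's methods and the submitters' processing notes. The labels named an RNA library kit, and removal of duplicate or mitochondrial reads was not given in the sources used here. The authors deposited raw read counts per region, with a single column for each genotype, and peak lists whose values are a fold over the local background and the −log10 of a p-value and a q-value. The number of columns of other samples left aside was 0. All 21 chromosomes were long enough in the reference for the highest coordinate in the files, and coordinates are counted from 1.

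From these files the TCKO counts were scaled to the WT total, 1 was added to each count, and 95% Wilson intervals of the TCKO share were turned into bounds of the log2 ratio. Intervals of differences came from the counting error of the 4 counts. Total counts, 56898657 and 34608167, set the precision. Because the columns were merged, edgeR's quasi-likelihood test could not be run, so edgeR 4.0.16 and DESeq2 1.42.0 (R 4.3.3) gave scaling factors only. MACS2's fold and p-value were solved together for the pileup and background of each summit. Overlaps needed 1 bp. Uniqueness was counted over GRCm38 on both strands. RefSeq promoters came from a table of 250 bases before to 50 after each start. Alternatives were other scalings (no scaling, TMM, DESeq2 size factors, the peak caller's background, loess with a span of 0.3, medians of 20 GC bins), folds of 1.5 and 3, 10 counts added, at least 50 counts, a −log10 q-value of at least 5 and other spans.

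Named regions were all that overlapped a member gene or lay within 2 kb of its start, then in each window the 3 of the rest with most counts and any at least 2-fold changed with at least 50 counts. Named genes of a list were those with most counts and with the lowest and highest ratio, except 1 that is not reported here. The members, lists and rules were chosen with earlier results of these data known. Steps were tested on simulated data. Python 3.11.15, numpy 2.4.6, pandas 2.3.3, scipy 1.17.1, statsmodels 0.14.6, Biopython 1.88 and matplotlib 3.10.9 were used.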

Additional observations from a re-analysis of the deposited data

How the results depend on the processing

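No paired analysis was possible because the columns were merged by genotype, and no replicate could be left out for the same reason. The *Bglap* cluster ratio of -0.04 became -0.76 with no scaling, -0.65 with the peak caller's background, 0.14 for the genes or the 2 kb before their starts and 0.17 within 2 kb of a start. For *Mgp* the ratio of -0.10 became -0.82 and -0.71 with these scalings, -0.48 for both narrower sums and -0.48 without the region with most counts. These sums include the intronic region, which was kept through its WT peak. The median of the members became -0.85 unscaled and -0.74 with the peak caller's background. Members at least 2-fold lower numbered 8 unscaled and 5 with the peak caller's background, against 3, and 5 past a fold of 1.5 and 1 past a fold of 3. The 1 member at least 2-fold higher became 0 with no scaling, the peak caller's background, loess, 10 counts added, a fold of 3 or an interval wholly past the cutoff. Peaks in both genotypes numbered 8, against 14, with a −log10 q-value of at least 5. The region 24.8 kb upstream of *Mgp* turned to -0.29 unscaled and -0.18 with the peak caller's background, and was 0.18 with GC bins. The cause of these changes, beyond each alternative's own construction, was not tested. Of the other alternative values of these summaries 24 stayed within the bounds of the main value or differed by under 1.5 times, TMM and DESeq2 size factors among them. The bounds were counting error for the window ratios. For the median of the members they were a spread over its regions, -0.61 to 0.28, and regions are not replicates. With loess that median was -0.30, against -0.13. Depth limits the osteocalcin starts, with 93 and 51 counts at *Bglap* and 106 and 82 at *Bglap2*, as it does the shallower regions around them.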
